A study of Homo sapiens with 12 samples.

Results

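The genes described here are 10 members of the BCL2 family, namely BCL2, BCL2L1, BCL2L2, MCL1, BCL2A1, BAK1, BCL2L11, BID, BMF and BAD, taken by name from a table of 29972 gene rows for each of 2 cell lines. All 10 had a row in both tables, and 9 had an adjusted p in each, the exception being BCL2A1. Messenger RNA was sequenced from human MDA-MB-436 and BoM-1833 cells, both established triple-negative breast cancer lines, the latter selected for growth in bone. In each line 3 libraries came from cells reverse transfected with a non-targeting control pool (siNT) and 3 from cells given siRNA against PHF19 (siPHF19), at 5 nM in total, and all were taken 72 h later. The protocol names 2 PHF19 siRNAs, and the labels do not say whether a library received 1 of them or their mixture. PHF19 is an accessory subunit of Polycomb repressive complex PRC2. Control and PHF19 siRNAs were bought from different suppliers, so loss of PHF19 and other effects of these siRNAs cannot be told apart. Values of a group are listed in the order of its replicates 1, 2 and 3. Replicates are numbered, but the labels do not say that they were separate cultures, so p-values measure the spread between these libraries, which may be technical.

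The BCL2 family controls whether the outer mitochondrial membrane is breached during apoptosis. Survival members (BCL2, BCL-xL from BCL2L1, BCL-w from BCL2L2, MCL1 and the A1 protein from BCL2A1) hold the pore-forming effectors BAX and BAK in check. BH3-only proteins such as BIM (from BCL2L11), BID, BMF and BAD bind the survival members or activate the effectors, and tumour cells differ in which survival member they rely on.

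Libraries held 15186338 to 24010271 reads in genes for MDA-MB-436, and those of BoM-1833 13748100 to 21258567. PHF19 ranged from 2942 to 3763 normalized counts (reads divided by 1 size factor per library) in MDA-MB-436 siNT and from 315 to 340.1 in siPHF19, and from 1669 to 1711 and 173 to 201 in BoM-1833, so every library matched its label. VIM and CD44, markers of basal or mesenchymal breast cancer lines, were at 9357 normalized counts or more in each library, and the hormone receptor genes ESR1 and PGR at 3.97 or fewer. Of the other luminal markers, ERBB2 lay between 932 and 1179, FOXA1 between 28.6 and 145, and GATA3 at 4.37 or fewer in MDA-MB-436 and between 131 and 164 in BoM-1833. Of the leukocyte and endothelial markers, CD3E was at 0 in every library and CDH5 at 2.11 or fewer, whereas CD14 reached 337 in MDA-MB-436 and PECAM1 404 in BoM-1833. Summed over 4 leukocyte markers, 14.5 to 17.7 RPM (reads scaled to the library's total of reads in genes) were found in MDA-MB-436 siNT and 11.9 to 13.5 in siPHF19, against 6.08 to 7.20 and 7.20 to 8.16 in BoM-1833. The sum of 3 endothelial markers was 1.33 to 2.05 and 1.06 to 1.62 in MDA-MB-436 and 16.9 to 24.5 and 17.5 to 23.8 in BoM-1833. CD14 was itself called lower in MDA-MB-436 (-0.37, adjusted p 0.0399, in the authors' deposited table). Of 6 basal or mesenchymal markers, 3 were called in MDA-MB-436, where CD44 (-0.29, adjusted p 2.66e-05) and CAV1 (-0.37, adjusted p 2.27e-06) fell and AXL rose (0.29, adjusted p 0.000128), in the authors' deposited table. In BoM-1833 VIM was called lower (-0.21, adjusted p 0.00213, in the authors' deposited table). The sum of these 6 markers was 2388 to 2706 RPM in MDA-MB-436 siNT and 2351 to 2461 in siPHF19, groups that overlap, and 6937 to 7208 against 6461 to 6542 in BoM-1833, groups that do not. The part of these genes in the results below was not tested.

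The control libraries were first used to ask which family members each line transcribes. Levels between genes are given as RPM per kb of the principal transcript (GENCODE 29), with mean ± SD over the 3 siNT libraries. In MDA-MB-436 MCL1 was the most abundant member, at 138 ± 3.03 (SD, n = 3), followed by BCL2L1 at 54.8 ± 5.11 (SD, n = 3). In BoM-1833 the order of these survival genes was the opposite, with BCL2L1 at 259 ± 3.29 (SD, n = 3) and MCL1 at 90.4 ± 2.69 (SD, n = 3). BAD came next in both lines, at 37.0 ± 3.82 (SD, n = 3) in MDA-MB-436 and 58.6 ± 5.07 (SD, n = 3) in BoM-1833.

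The middle of the order held BCL2L11 (21.5 ± 3.89, SD, n = 3), BID (20.3 ± 2.09), BCL2L2 (11.9 ± 0.636) and BAK1 (11.4 ± 1.06) in MDA-MB-436, where BCL2L11 overlapped BID and BCL2L2 overlapped BAK1. In BoM-1833 it held BAK1 (26.7 ± 1.56, SD, n = 3), BCL2L2 (11.9 ± 0.162), BID (10.02 ± 0.658), BCL2L11 (9.15 ± 1.44) and BMF (3.93 ± 0.165), of which BID and BCL2L11 overlapped. BCL2, the founding survival gene, was low, at 1.63 ± 0.0611 and 2.13 ± 0.108 (SD, n = 3) in MDA-MB-436 and BoM-1833, and BMF in MDA-MB-436 was at 0.865 ± 0.143 (SD, n = 3). With the length of all exons merged in place of the principal transcript, BCL2L11 moved most in MDA-MB-436, to 4.91 ± 0.890 (SD, n = 3), rank 7 of 10, while the first 3 places stayed as they were in both lines. In BoM-1833 BCL2L11 moved from rank 7 to 8, at 2.09 ± 0.329, below BMF at 3.38 ± 0.142 (SD, n = 3). The plot of control levels shows the exchange of BCL2L1 and MCL1 at the top.

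**Figure D1:**
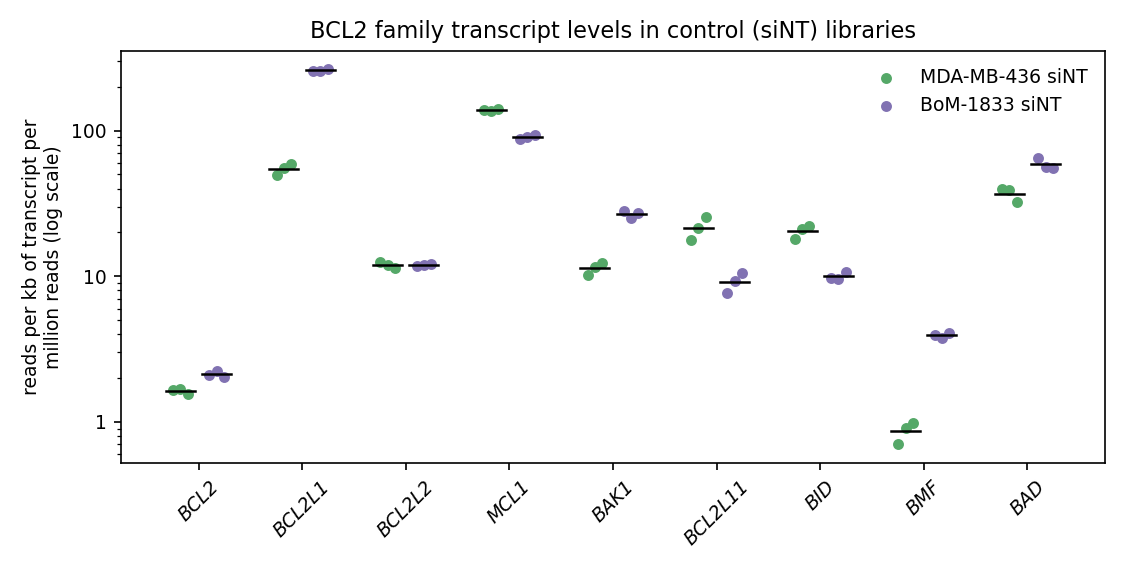
RPM per kb of transcript (log axis) of 9 BCL2 family genes in the siNT libraries of MDA-MB-436 (green) and BoM-1833 (purple); points are libraries and bars the mean of 3. MCL1 leads in MDA-MB-436 (138) and BCL2L1 in BoM-1833 (259), and BCL2A1, at or near 0, is not drawn.

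Between the lines, 8 of the 9 members tested in both had siNT libraries that did not overlap in RPM, where 80.3% of all 12290 genes tested in both lines did not overlap either. The tables were normalized separately and levels are set side by side as RPM, with no test. BCL2L1 stood at 141 ± 13.2 RPM (SD, n = 3) in MDA-MB-436 and 668 ± 8.49 (SD, n = 3) in BoM-1833, a ratio of 4.73. BMF was 4.54 times, BAK1 2.35 times, BAD 1.59 times and BCL2 1.303 times as high in BoM-1833. In the other direction BCL2L11 was 2.35 times, BID 2.03 times and MCL1 1.53 times as high in MDA-MB-436. BCL2L2 was alike, at 43.0 ± 2.29 and 43.1 ± 0.582 RPM (SD, n = 3).

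BCL2A1, a survival gene best known from blood cells and induced by NF-kB, was barely detected. In MDA-MB-436 its reads per library were 0, 1 and 1 in siNT and 0, 1 and 0 in siPHF19. In BoM-1833 they were 10, 7 and 9 in siNT and 0, 4 and 3 in siPHF19. The BoM-1833 groups do not overlap, but the gene has no adjusted p in the authors' deposited table and its unadjusted p there is 0.122, so a change was not detectable at this depth.

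After siPHF19, 2 of 9 tested members were called in MDA-MB-436 and 2 of 9 in BoM-1833, at an adjusted p under 0.05 by the authors' deposited DESeq2 Wald test. BCL2 and BCL2L1 rose in MDA-MB-436, whereas in BoM-1833 MCL1 fell and BMF rose. The share of 22.2% in MDA-MB-436 stands beside 22.1% of all 14243 tested genes, and the same share in BoM-1833 stands beside 10.9% of 12906 genes. Calls of higher genes made up 10.5% of all tested genes for MDA-MB-436 and 5.21% for BoM-1833, and calls of lower genes 11.5% and 5.72%. The median log2 fold change of the 9 members was -0.0082 for MDA-MB-436 and 0.02 for BoM-1833, against -0.0022 and -0.0035 over all genes tested. No member was called in both lines, by the deposited test or by edgeR, and 2 members had an unadjusted p under 0.05 in both. Of the 10961 genes whose 3′ UTRs are considered below, the deposited test called 361 lower and 297 higher in both. By that test 4639 of 14243 genes had an unadjusted p under 0.05 in MDA-MB-436 and 2765 of 12906 in BoM-1833. How many of all genes had this in both lines was not counted, so the 2 members have no direct background. Libraries of the groups did not overlap for 5 of 9 members in MDA-MB-436, beside 42.2% of all tested genes. The same held for 6 of 9 members in BoM-1833, beside 31.0% of all tested genes. In bulk RNA, fewer cells expressing a gene and less RNA per cell cannot be told apart.

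**Figure D2:**
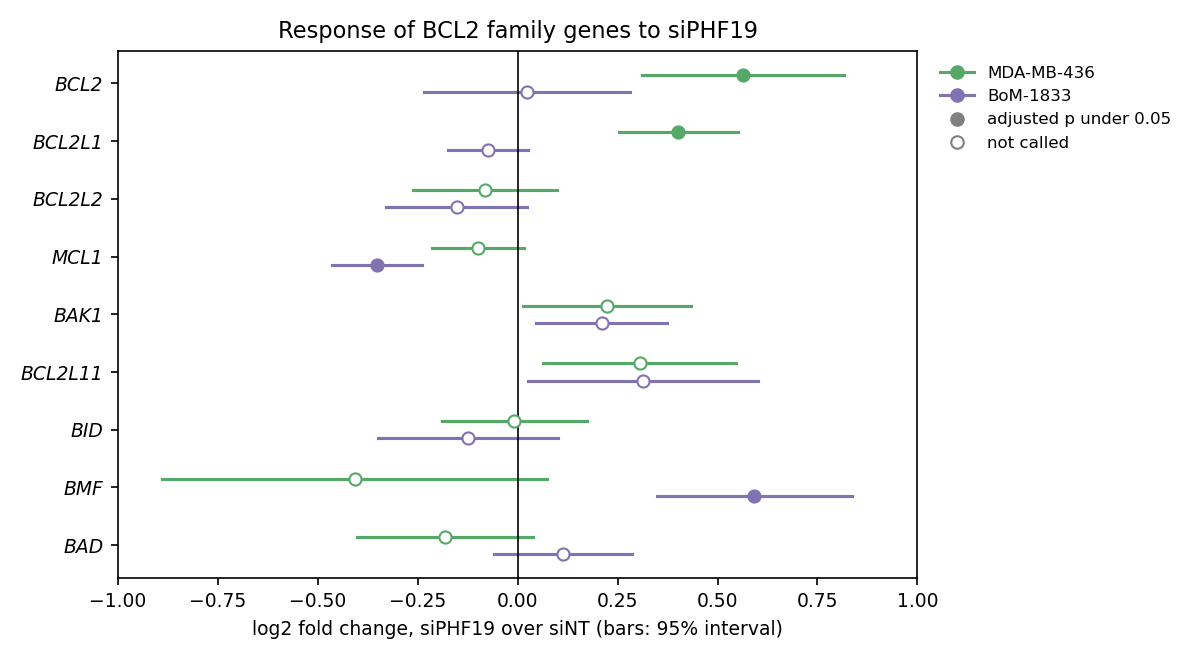
Log2 fold change of siPHF19 over siNT with its 95% interval for 9 BCL2 family genes, from the authors' deposited tables for MDA-MB-436 (green) and BoM-1833 (purple); filled points are called. BCL2 (0.56) and BCL2L1 (0.40) are called in MDA-MB-436 and MCL1 (-0.35) and BMF (0.59) in BoM-1833, while BAK1 and BCL2L11 lie to the right of 0 in both lines without being called.

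Among survival genes, BCL2 (chr18:63123346-63320128, GRCh38, minus strand) encodes the membrane-anchored protein that gave the family its name. In MDA-MB-436 its normalized counts were 238, 232 and 216 in siNT and 363, 335 and 317 in siPHF19. All siPHF19 libraries lay above all siNT libraries, with means of 229 ± 11.1 and 338 ± 23.2 (SD, n = 3). The log2 fold change is 0.56 (adjusted p 0.000175, SE 0.13) in the authors' deposited table, or 1.48-fold. In BoM-1833 the counts were 263, 278 and 257 in siNT and 277, 277 and 255 in siPHF19, groups that overlap, with a log2 fold change of 0.02 (95% interval -0.24 to 0.28) from the authors' deposited table.

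BCL2L1 (chr20:31664452-31723989, GRCh38, minus strand) encodes BCL-xL, and a shorter splice form of the opposite function that gene-level counts do not separate. In MDA-MB-436 it rose from 2429.7, 2674 and 2841 normalized counts in siNT to 3530.1, 3467 and 3498 in siPHF19, with no overlap. The authors' deposited table gives 0.40 (adjusted p 2.67e-06, SE 0.08), or 1.32-fold. In BoM-1833, which holds far more of this transcript, the counts were 11236, 10917 and 11388 in siNT and 10426, 10747 and 10689 in siPHF19. These libraries also do not overlap, in the lower direction, but the log2 fold change of -0.07 in the authors' deposited table has a 95% interval of -0.18 to 0.03 and was not called (adjusted p 0.450).

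MCL1 (chr1:150574551-150579738, GRCh38, minus strand) encodes a survival protein with a short half-life. In BoM-1833 it fell from 5846, 5829 and 6175 normalized counts in siNT to 4749, 4523 and 4705 in siPHF19, so that the highest siPHF19 library lay below the lowest siNT library. The means were 5950.2 ± 195 and 4659 ± 119.7 (SD, n = 3), with a log2 fold change of -0.35 (adjusted p 5.86e-08, SE 0.06), or 0.783-fold, in the authors' deposited table. In MDA-MB-436 the counts were 10383, 9905 and 10327 in siNT and 9414, 9824 and 9326 in siPHF19. There too the groups do not overlap, but the log2 fold change of -0.10 (95% interval -0.21 to 0.01) in the authors' deposited table was not called (adjusted p 0.228).

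BCL2L2, which encodes BCL-w, was not called in either line, although in BoM-1833 all siPHF19 libraries lay below all siNT libraries. In MDA-MB-436 the groups overlapped. In the authors' deposited table its log2 fold changes are -0.08 (95% interval -0.26 to 0.10, adjusted p 0.580) in MDA-MB-436 and -0.15 (95% interval -0.33 to 0.02, adjusted p 0.335) in BoM-1833. The gene lies within the read-through gene BCL2L2-PABPN1 on the same strand, whose row averaged 1683 normalized counts (MDA-MB-436) and 1335 (BoM-1833) against 786 and 685 for BCL2L2 in the authors' deposited table, so the division of reads between these rows is uncertain.

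BAK1, the one effector among the 10 genes, encodes a protein that forms pores in the outer mitochondrial membrane. Its normalized counts were 417, 461 and 487 in MDA-MB-436 siNT and 521, 517 and 556 in siPHF19. In BoM-1833 they were 1006, 880 and 976 in siNT and 1128, 1086 and 1097 in siPHF19. The groups do not overlap in either line, with siPHF19 higher. In the authors' deposited table the log2 fold changes are 0.22 (unadjusted p 0.0371, adjusted p 0.124, SE 0.11) and 0.21 (unadjusted p 0.0116, adjusted p 0.0879, SE 0.08), and BAK1 was not called in either line. Without BoM-1833 siNT replicate 1 it was called there, at 0.25 (adjusted p 0.0215, DESeq2). Without siNT replicate 2 the estimate was 0.15 (adjusted p 0.453, DESeq2), and leaving out any other BoM-1833 library gave no call either. BAK1 has 2 annotated pseudogenes with which reads may be shared.

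Of the BH3-only genes, BMF (chr15:40087890-40108892, GRCh38, minus strand) encodes a protein that binds dynein light chain and is known for its part in the death of detached cells. In BoM-1833 it rose from 311, 291 and 322 normalized counts in siNT to 524, 462 and 405 in siPHF19. The groups do not overlap, the siPHF19 libraries being spread more widely than the siNT libraries, with means of 464 ± 59.8 and 308 ± 15.7 (SD, n = 3). The authors' deposited table gives 0.59 (adjusted p 6.48e-05, SE 0.12), or 1.51-fold. In MDA-MB-436, where BMF was scarce, counts were 63.3, 79.1 and 85.6 in siNT and 53.4, 57.2 and 61.3 in siPHF19, groups that do not overlap. Its log2 fold change there is -0.41 in the authors' deposited table, with a 95% interval of -0.89 to 0.07 and no call (adjusted p 0.244). Reads counted without strand could include the antisense gene BMF-AS1, and the use of strand in counting is not given in the sources used here. Other members overlap annotated genes too. On the opposite strand these are AL117381.1 and ABALON for BCL2L1, AC022726.2 for BCL2 and MIR4435-2HG for BCL2L11. On the same strand they are AC022726.1 for BCL2 and ADAMTSL4-AS1 for MCL1. Whether reads of these genes were shared was not tested.

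BCL2L11 encodes BIM, which binds every survival member and can activate the effectors directly. Its normalized counts in MDA-MB-436 were 514, 605 and 719 in siNT and 789, 765 and 714 in siPHF19, so that siNT replicate 3 lay within the siPHF19 range. In BoM-1833 they were 197, 232 and 270.0 in siNT and 293, 270.1 and 304 in siPHF19. There the groups do not overlap, although the highest siNT and the lowest siPHF19 library differ by less than 1 count. In the authors' deposited table the log2 fold changes are 0.31 in both lines (MDA-MB-436 adjusted p 0.0584 with SE 0.12, BoM-1833 adjusted p 0.178 with SE 0.15), and BCL2L11 was not called. Without MDA-MB-436 siNT replicate 3 the estimate there was 0.43 (adjusted p 0.00119, DESeq2). Without siNT replicate 1 it was 0.20 (adjusted p 0.200, DESeq2), and leaving out any other MDA-MB-436 library gave no call either. BCL2L11 and BAK1 are the members with an unadjusted p under 0.05 in both lines.

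BID, which caspase-8 cleaves into an active form, ranged from 858 to 1020 normalized counts over the 6 MDA-MB-436 libraries and from 367 to 452 over the 6 BoM-1833 libraries. In the authors' deposited table its log2 fold changes are -0.0082 (95% interval -0.19 to 0.17) and -0.12 (95% interval -0.35 to 0.10). BAD, whose protein is held inactive by phosphorylation, has -0.18 (95% interval -0.40 to 0.04, adjusted p 0.259) in MDA-MB-436 and, for BoM-1833, 0.11 (95% interval -0.06 to 0.29, adjusted p 0.523), both from the authors' deposited table. Without MDA-MB-436 siNT replicate 3 BAD was called lower there, at -0.27 (adjusted p 0.0429, DESeq2). Without siNT replicate 1 its estimate was -0.12 (adjusted p 0.522, DESeq2), and leaving out any other MDA-MB-436 library gave no call either. BAD overlaps GPR137 on the opposite strand, which was called higher in MDA-MB-436 (0.23, adjusted p 0.0267) in the authors' deposited table.

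**Figure D3:**
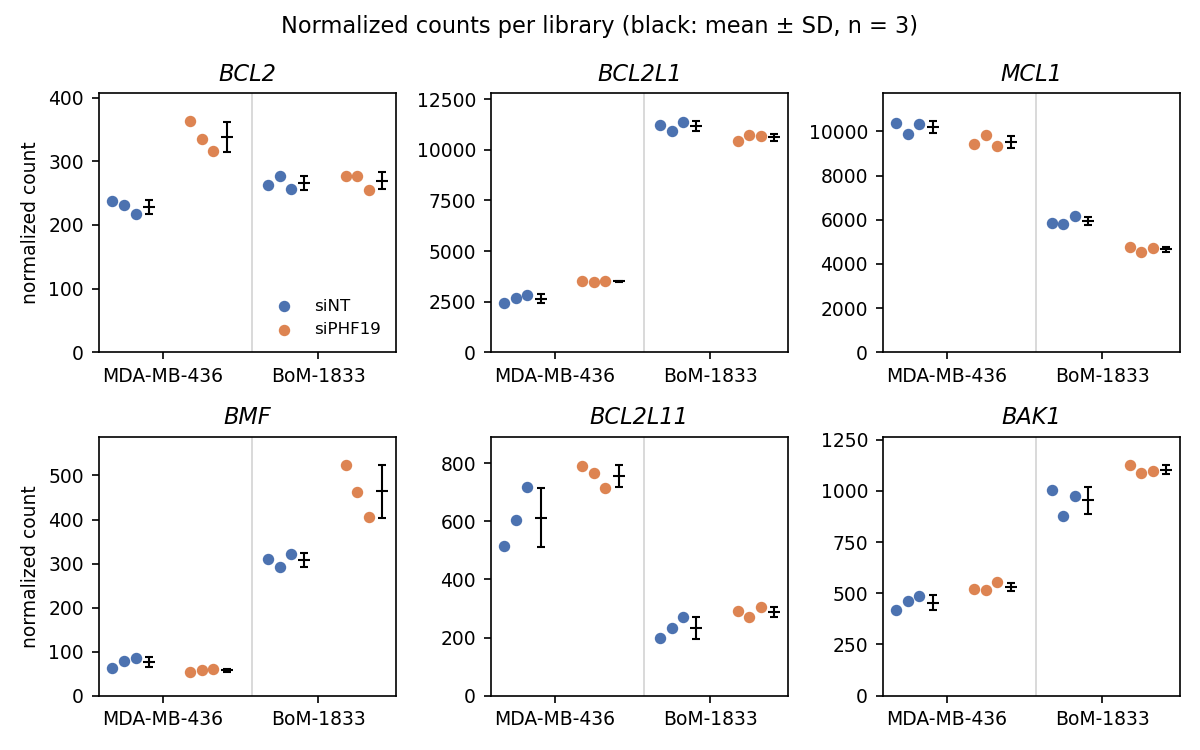
Normalized counts of 6 BCL2 family genes in each siNT (blue) and siPHF19 (orange) library of both lines, with mean ± SD of 3 libraries in black; each panel starts at 0. In BoM-1833 MCL1 falls from 5950.2 to 4659 and BMF rises from 308 to 464 on average, whereas in MDA-MB-436 BCL2 rises from 229 to 338 and BCL2L1 from 2648 to 3498.

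Whether the lines responded differently was tested for each gene with z, taken as the deposited log2 fold changes subtracted from each other (MDA-MB-436 minus BoM-1833) over the standard error of that difference, with p adjusted over 12290 genes. Of 9 members 3 differed, where 4.89% of all genes did. BCL2L1 differed by 0.48 (adjusted p 2.71e-05, SE 0.09), MCL1 by 0.25 (adjusted p 0.0439, SE 0.08) and BMF by -0.999 (adjusted p 0.0103, SE 0.28). For BCL2 the difference of 0.54 (SE 0.18) did not pass in this test (adjusted p 0.0622) and did in joint fits of all 12 libraries (0.0185 by edgeR and 0.0122 by DESeq2). For BAK1 and BCL2L11 the estimates in the lines were close, with differences of 0.01 (95% interval -0.25 to 0.28) and -0.0087 (95% interval -0.38 to 0.37). The BCL2L1 difference passed in each of 15 alternatives. That of MCL1 was lost in 10, among them the fits without MDA-MB-436 siNT replicate 2, any MDA-MB-436 siPHF19 replicate, BoM-1833 siNT replicate 2 or 3, or any BoM-1833 siPHF19 replicate (adjusted p 0.0746 to 0.301). That of BMF was lost in 6, among them the fits without MDA-MB-436 siNT replicate 2 or 3 or any MDA-MB-436 siPHF19 replicate (adjusted p 0.0547 to 0.128).

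Because BCL2L1 and MCL1 exchange places between the lines, their ratio per kb was taken within each library, a measure chosen after their values were seen. It does not depend on the scaling of libraries. In MDA-MB-436 the ratio of BCL2L1 to MCL1 was 0.357, 0.412 and 0.420 in siNT and 0.572, 0.538 and 0.572 in siPHF19. In BoM-1833 it was 2.93, 2.86 and 2.81 in siNT and 3.35, 3.62 and 3.46 in siPHF19. The ratio was higher in each siPHF19 library than in each siNT library of its line, by 0.50 on the log2 scale for MDA-MB-436 and by 0.28 for BoM-1833. By an exact permutation test, 2-sided, p was 0.1 for either line, and 3 libraries against 3 cannot give less. For MDA-MB-436 both estimates raise the ratio, BCL2L1 at 0.40 (called) and MCL1 at -0.10 (not called), on the log2 scale (the authors' deposited table). For BoM-1833 only the fall of MCL1 raises it, at -0.35 (called, the authors' deposited table). The BCL2L1 estimate there, -0.07 (not called, the authors' deposited table), lowers the ratio. Of the summed level per kb of the 5 survival genes, MCL1 made up 66.9% ± 1.35 (SD, n = 3) in MDA-MB-436 siNT and 60.0% ± 0.816 (SD, n = 3) in siPHF19, and 24.8% ± 0.386 (SD, n = 3) and 21.5% ± 0.661 (SD, n = 3) in BoM-1833.

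**Figure D4:**
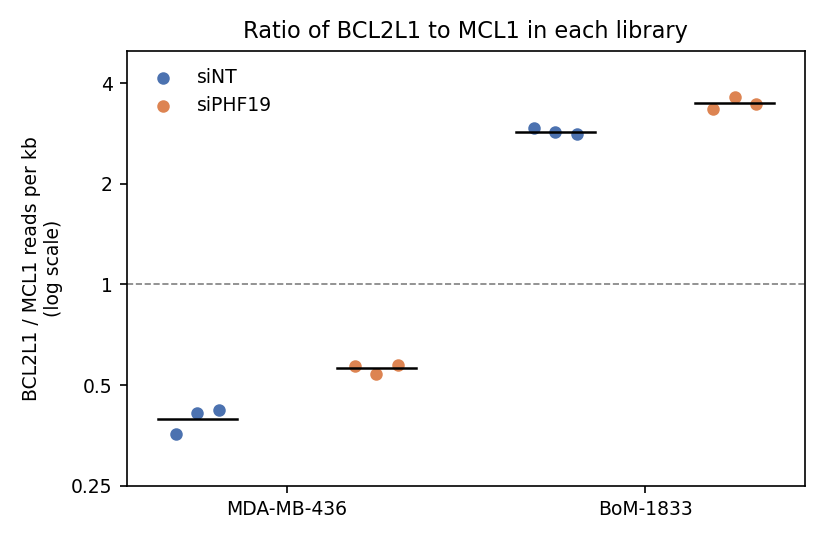
Ratio of BCL2L1 to MCL1 reads per kb (log axis) in each siNT (blue) and siPHF19 (orange) library; bars are means of 3 and the dashed line marks equal levels. MDA-MB-436 libraries lie below 1, BoM-1833 libraries above 1, and in both lines the siPHF19 libraries lie above the siNT libraries.

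The counts of calls in the lists that follow stand beside 22.1% of all tested genes called in MDA-MB-436 (10.5% higher, 11.5% lower) and 10.9% called in BoM-1833 (5.21% higher, 5.72% lower). The 13 other genes of the family gave 2 calls among 10 tested in MDA-MB-436, 1 higher and 1 lower, and 1 call among 8 tested in BoM-1833, lower. BNIP3, which encodes a mitochondrial protein of mitophagy induced by hypoxia, fell in both lines, by the authors' deposited table with log2 fold changes of -0.25 (adjusted p 0.0292, SE 0.09) in MDA-MB-436 and -0.35 (adjusted p 7.53e-08, SE 0.06) in BoM-1833. In MDA-MB-436 this call was lost without siNT replicate 2 and without siPHF19 replicate 1 or 3 (adjusted p up to 0.255). Its relative BNIP3L rose in MDA-MB-436 (0.40, adjusted p 0.00163, and 0.0734 without siPHF19 replicate 2) and in BoM-1833 has -0.02 (adjusted p 0.928), both from the authors' deposited table. The difference between lines passed for BNIP3L (0.42, adjusted p 0.0201, z test).

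Downstream of the mitochondrion, the list of 10 apoptosome and release genes had 2 calls in MDA-MB-436, both lower, and 1 in BoM-1833, higher. APAF1, the scaffold of the apoptosome, rose in BoM-1833 from 1007 ± 66.8 to 1226 ± 21.1 normalized counts (SD, n = 3), at 0.28 (adjusted p 0.00660) in the authors' deposited table. That call was lost without BoM-1833 siNT replicate 2 or any siPHF19 replicate (adjusted p 0.0556 to 0.0921). HTRA2, a protease released from mitochondria, fell in MDA-MB-436 (-0.37, adjusted p 0.00112), as did the channel gene VDAC3 (-0.24, adjusted p 0.0309), in the authors' deposited table. The VDAC3 call was lost without MDA-MB-436 siNT replicate 1 or 2 or any siPHF19 replicate (adjusted p up to 0.181).

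Among the caspase genes, CASP2, an initiator caspase, rose in MDA-MB-436 (0.34, adjusted p 0.00794) in the authors' deposited table. That call was lost without any 1 of the MDA-MB-436 siPHF19 replicates (adjusted p 0.0524 to 0.0743). In BoM-1833 CASP2 was not called (0.24, adjusted p 0.114, in the authors' deposited table).

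Genes listed as inhibitors of apoptosis, whose products block caspases or target them for degradation, gave 3 calls of 6 in MDA-MB-436, all lower, and 1 of 6 in BoM-1833, lower, beside 11.5% and 5.72% of all tested genes called lower. The 6 include CFLAR, which is not a BIRC gene and was not called in either line. BIRC3 fell in both lines, at -0.50 (adjusted p 1.18e-06, SE 0.09) and -0.47 (adjusted p 5.93e-04, SE 0.11) in the authors' deposited table. BIRC5, which encodes survivin and is also a mitotic gene, fell in MDA-MB-436 (-0.49, adjusted p 4.09e-05) and has 0.09 (adjusted p 0.556) for BoM-1833 in the authors' deposited table, a difference that passed (-0.58, adjusted p 4.15e-04, z test). BIRC2, named here after its values were seen, was the remaining call in MDA-MB-436 (-0.30, adjusted p 0.00738, in the authors' deposited table). The 8 death receptor and adaptor genes gave 0 calls among the 7 tested in MDA-MB-436 and 0 among the 8 tested in BoM-1833 by the deposited DESeq2 test. At an unadjusted p under 0.05 there were 2 and 0, beside 4639 of 14243 and 2765 of 12906 genes tested. By edgeR 2 of them, FAS and FADD, were called lower in MDA-MB-436, against 0 for BoM-1833. In either direction edgeR called 24.5% of 13977 genes in MDA-MB-436 and 11.2% of 13602 in BoM-1833.

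Of 16 regulators of the family, which act on transcription, phosphorylation or turnover of its members, 3 were called higher and 4 lower in MDA-MB-436 (10.5% and 11.5% of all tested genes), and 0 higher and 3 lower in BoM-1833 (5.21% and 5.72%). FOXO3, a transcription factor known to induce BCL2L11 and other BH3-only genes, fell in both lines. Its mean normalized count went from 1543 ± 210 to 986 ± 52.1 (SD, n = 3) in MDA-MB-436, while in BoM-1833 it went from 949 ± 101 to 585 ± 57.1 (SD, n = 3). The log2 fold change is -0.65 (adjusted p 7.43e-08, SE 0.11) and -0.69 (adjusted p 3.96e-09, SE 0.11), from the authors' deposited table. JUN fell in both lines (-0.33, adjusted p 1.12e-05, and -0.29, adjusted p 4.34e-05), as did the stress gene TRIB3 (-0.26, adjusted p 0.00907, and -0.38, adjusted p 0.00139), in the authors' deposited table. In MDA-MB-436 the TRIB3 call was lost without siNT replicate 2 or siPHF19 replicate 1 or 2 (adjusted p up to 0.173). BTRC, GSK3B and PIM1, higher, and ATF4, lower, were the other calls in MDA-MB-436, named after their values were seen.

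BAK1 had the smallest larger adjusted p of the lines among the members, so the genes most like it were listed. Over the 12 libraries, with log2 normalized counts centred on each line's mean, the highest Pearson correlations with BAK1 among 9836 genes with a mean of at least 100 were those of SPNS1 (r = 0.98), TXNDC12 (r = 0.97) and LITAF (r = 0.96). The points share libraries and the siRNA contrast. In the authors' deposited table these genes have 0.37, 0.27 and 0.24 in MDA-MB-436 (adjusted p 0.00331, 0.0156 and 0.00369) and 0.34, 0.20 and 0.21 in BoM-1833 (adjusted p 0.0571, 0.0772 and 0.114).

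Last, the 3′ UTRs of the members were searched, on the transcript strand, for AAACTG, a 6-base sequence already described in these data for genes that fell. It occurred in 70.4% of 361 genes called lower in both lines, in 37.4% of 297 called higher in both and in 42.3% of 7765 called in neither. Because the sequence was described from genes that fell in these data, the first share is not a separate result. The median 3′ UTR lengths of these groups were 1610, 1656 and 1087 bases, in the same order. Of the 9 members tested in both lines, 7 contain it (77.8%), against 44.0% of the 10961 genes tested in both lines whose 3′ UTR is annotated. The 3′ UTRs of these 9 members have a median length of 1497 bases, against 1173 for those genes. It occurs 4 times in BMF, 2 times in BCL2L2, 1 time each in BCL2, BCL2L1, MCL1, BAK1 and BCL2L11, and in none of BCL2A1, BID and BAD (1 principal transcript a gene, GENCODE 29). The sites of the 4 called members are printed because called members of both directions hold the sequence. Each line gives 30 bases, 5′ to 3′, with the 6 bases in capitals, and all 4 genes lie on the minus strand of GRCh38.
BCL2 (chr18:63124191-63124220): ttaagcaatgtgAAACTGaattggagagtg
BCL2L1 (chr20:31664461-31664490): cagttcagtaatAAACTGtgtttactcagt
MCL1 (chr1:150575385-150575414): aaagctactgatAAACTGaagaaagtgtct
BMF site 1 (chr15:40091068-40091097): ggctaggcctcaAAACTGacttggtcccac
BMF site 2 (chr15:40090009-40090038): gagaagggcctcAAACTGtgcatgtaagcc
BMF site 3 (chr15:40089278-40089307): gcttagtgatctAAACTGgccccttcctcc
BMF site 4 (chr15:40087991-40088020): ccattttttaaaAAACTGtacagagccttt
MCL1, which fell in BoM-1833, holds 1 site, and BMF, which rose there, holds 4. BCL2 and BCL2L1, which rose in MDA-MB-436, hold 1 each. The match is a description of the sequence only.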

How the data were processed

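Human mRNA libraries, 12 in all, were sequenced from 4 groups of 3. Per the submitters' processing notes, STAR, RSEM 1.3.1 and DESeq2 1.46.0 were used with hg38. The library kit keeps strand, per the labels' protocols, but the strand setting of the counting and the annotation are not given in the sources used here. The authors deposited 1 DESeq2 table per line. Library columns are a signal in the deposited tables, that is, reads over a size factor of each library. Log2 fold changes and standard errors are on the log2 scale, the Wald statistic is a score, and p-values and adjusted p-values are the authors' own, as deposited.

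Library values were whole multiples of 1 step (100% within 0.01), so reads were recovered. DESeq2 1.42.0 on these reads gave the authors' 3143 and 1411 calls. The number of per-sample columns belonging to no sample was 0, and 28 gene names were date-like and are not named. Replicate pairs differed by a chi-square per degree of freedom of 5.92 to 24.1 among siNT libraries and 2.29 to 3.45 among siPHF19 libraries, above the 1 of sampling noise. The pairs with siNT replicate 1 gave the highest values, 11.9 and 21.3 in MDA-MB-436 and 24.1 and 15.0 in BoM-1833.

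A gene was called when its adjusted p (Benjamini-Hochberg over all tested genes) was under 0.05. Differences between lines were tested with z. Reads were simulated with 200 genes changed 2-fold in each line, drawn from genes with a mean normalized count above 100. DESeq2 found 98.5% and 96.5% in MDA-MB-436 and BoM-1833 (16 and 13 false calls among 16705 and 16309 genes) and edgeR 4.0.16 found 99.5% and 97.0% (14 and 16 among 13962 and 13552). The z test found 85.1% of 397 genes simulated to differ (18 false calls among 14974). Smaller changes, such as those of the called members, and changes of genes with lower means were not simulated, so these shares do not apply to them. Genes were drawn independently, with the same dispersion in both groups, whereas the real siNT libraries differed more than the siPHF19 libraries. The numbers of false calls therefore need not hold for these data. Alternatives were DESeq2 rerun on the recovered reads, edgeR's quasi-likelihood test, other scaling and filters, a stricter threshold, a replicate block and leaving out each library.

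Named genes are the 10 members and PHF19; from each other list genes called in both lines and up to 2 per line with the smallest adjusted p under 0.05; and the 3 genes most like the member with the smallest larger adjusted p. Members and lists were chosen with earlier results of these data known. Results for some genes of the caspase and marker lists are not reported here.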

Additional observations from a re-analysis of the deposited data

Results flagged for a closer look

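For 3 members the response to siPHF19 differed between the lines by a test of the difference itself (z, MDA-MB-436 minus BoM-1833). BCL2L1 differed by 0.48 on the log2 scale, from 0.40 (MDA-MB-436) and -0.07 (BoM-1833), of which the latter was not called (95% interval -0.18 to 0.03). MCL1 differed by 0.25, with -0.10 and -0.35, both below 0, of which that in MDA-MB-436 was not called. BMF differed by -0.999, with -0.41 and 0.59, so that the estimates have opposite signs, although that in MDA-MB-436 was not called. The joint edgeR and DESeq2 fits of all 12 libraries also gave these 3 genes, and BCL2 besides, but the share of all genes passing in those fits was not computed. The BCL2L1 difference passed in all 15 alternatives, whereas that of MCL1 was lost in 10 of them and that of BMF in 6, and with the replicate block only BCL2L1 passed (MCL1 adjusted p 0.491, BMF 0.226, z test on DESeq2 fits).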

How the results depend on the processing

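The calls of BCL2 and BCL2L1 in MDA-MB-436 and of MCL1 and BMF in BoM-1833 were kept in all 13 alternatives of each line. Not all are separate checks. The DESeq2 rerun on recovered reads repeats the deposited test, and the stricter threshold and DESeq2 without independent filtering keep its estimates. Over the 13 alternatives the log2 fold change ranged from 0.51 to 0.61 for BCL2 and 0.35 to 0.45 for BCL2L1, and from -0.37 to -0.33 for MCL1 and 0.49 to 0.68 for BMF. Leaving out 1 library at a time gave 2 to 4 members called in MDA-MB-436, the 4 without siNT replicate 3, and 2 to 3 in BoM-1833, the 3 without siNT replicate 1. In these 2 fits the share of all genes called was also higher, at 26.9% and 17.0%, against 12.9% to 20.3% and 5.99% to 8.95% without the other libraries. Without the filter on low counts edgeR called 3 in MDA-MB-436, adding BCL2L11, beside 17.9% of all genes. Members that differed between lines numbered 1 to 3 when 1 library was left out, and 1 (BCL2L1) with the replicate block, against 4 in the joint fits. The share of all genes that passed in these tests was not computed, so these counts have no background to stand beside. In fits without 1 library, estimates near 0 changed sign, none of them called, and ranged from -0.0736 to 0.0427 for BID in MDA-MB-436 and from -0.0025 to 0.0606 for BCL2 in BoM-1833. Differences between lines did so too, ranging from -0.0434 to 0.0686 for BAK1 and from -0.125 to 0.116 for BCL2L11. The cause was not tested.

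Whether replicate numbers pair the libraries is not given. Deviations from the group mean of siNT and siPHF19 libraries with the same number correlated at -0.23, 0.04 and -0.27 in MDA-MB-436 and -0.31, -0.12 and -0.20 in BoM-1833. Libraries with other numbers correlated at -0.04 to 0.27 and -0.19 to 0.33. These values show no likeness of same-number libraries, but with deviations centred in groups of 3 they cannot exclude pairing. With the replicate block, calls over all genes went from 3143 to 1610 and from 1411 to 610, and the members called stayed at 2 in each line. The block ended the calls of BNIP3 (adjusted p 0.107), CASP2 (0.0616), TRIB3 (0.128) and VDAC3 (0.146) in MDA-MB-436 and of APAF1 (0.114) in BoM-1833, by DESeq2. BCL2A1 is limited by depth.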
